A study of Caenorhabditis elegans with 3 samples.

Results

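Gap junctions are channels that join the cytoplasm of neighbouring cells, and in nematodes their subunits are the innexins. In the gonad of Caenorhabditis elegans, subunits made by the somatic cells that surround the germ line (INX-8 and INX-9) pair with subunits made by germ cells (INX-14 with INX-21 or INX-22). The channels that hold INX-21 are known for supporting germ cell proliferation, and those that hold INX-22 for holding back the meiotic maturation of oocytes. The genes inx-8, inx-9, inx-14, inx-21 and inx-22 were chosen by name as the gonadal gap junction innexins, 5 genes in all. Of these, 3 (inx-14, inx-8 and inx-9) had a probe assigned to them alone, 1 probe each, among 14686 named genes tested. The annotation used here gives no such probe for inx-21 or inx-22, so neither was analysed here.

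Each of 3 two-colour arrays held total RNA of glp-4 L3 larvae (prep 1, 3 or 4) and, in the other channel, the wild-type mixed reference RNA. Mutants of glp-4, a gene for valyl-tRNA synthetase, are known for having few germ cells at the restrictive temperature. The labels give no allele, temperature or sex, and do not say what was mixed in the reference or how the preps were grown, so the p-values cover only how these 3 samples vary, which may be technical. Genotype and stage differ together between the 2 RNAs and cannot be told apart. In RNA of whole animals, fewer cells of a type and less RNA per cell cannot be told apart either.

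Values are log2 ratios of glp-4 L3 over reference after each array was centred on its median, so 0 is the median probe, and -1 is 2-fold lower in glp-4 L3 relative to it. The labels put glp-4 on channel 2 and name no dye. The direction is therefore the likely one, read from the common practice of dividing channel 2 by channel 1 and from the germ cell genes, which should be low in animals with few germ cells. Since inx-14 is a germ cell gene, the side on which it lies is partly set by that reading. The same holds for the germ cell, oocyte and sperm markers and for the germ cell and oocyte lists below. With the ratio turned, each sign turns, lower and higher counts swap, places and shares count from the other end, and sizes stand. No scanner intensities were used, so it is unknown whether a probe lay near background.

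The arrays differed in spread. The SD of the log2 ratio over all probes, in the order of preps 1, 3 and 4, came to 0.71, 0.963 and 1.14. Letters in the array titles, and what reads there as a date, are alike for preps 3 and 4 and different for prep 1; the labels do not say what they mark, and the 2 sets are called title groups here. Pearson's r over probes, a description across probes and not across replicates, was 0.835 between preps 3 and 4, 0.645 between preps 1 and 3, and 0.599 between preps 1 and 4. Markers fixed for germ cells were lower for 5 of 5 measured (median -1.75) and those for oocytes for 6 of 6 (-5.18 to -2.96). Those for sperm were lower for 3 of 5, with spe-9 at 0.13 and spe-41 at 0.16. No marker of spermatheca or neurons passed the test. For hypodermis 1 of 3 was higher, over a range of -1.34 to 1.42. Of all features, 8.37% were called lower and 8.26% higher (limma). Of the sheath markers, lim-7 was at -0.22 and ceh-18 at 0.30, and neither passed the test.

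The germ cell subunit gene inx-14 (F07A5.1) was the only gonadal innexin that passed the threshold. Its log2 ratios were -1.92, -2.79 and -2.64 with preps 1, 3 and 4. All 3 arrays put it far below the median probe, at ratios of 0.264, 0.144 and 0.161 in the same order. The mean was -2.45 ± 0.46 (SD, n = 3), 5.46-fold lower in glp-4 L3, with a 95% interval of -3.02 to -1.88 (limma, Benjamini-Hochberg adjusted p = 0.00464 over 19580 features). It passed without any single prep, at adjusted p = 0.0013 without prep 1, 0.0461 without prep 3 and 0.0225 without prep 4. Thus 1 of the 3 measured gonadal innexins was called lower and none higher, where 8.37% of all features were called lower and 8.26% higher.

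The somatic subunit gene inx-8 (ZK792.2) had log2 ratios of -0.34, -1.61 and -1.99 with preps 1, 3 and 4. It was thus closer to the median probe with prep 1 than with preps 3 and 4, and below it on all 3 arrays. The corresponding ratios were 0.79, 0.327 and 0.253. The mean was -1.31 ± 0.86 (SD, n = 3), with a 95% interval of -2.18 to -0.45, and it did not pass after adjustment over all features (limma adjusted p = 0.0578, unadjusted p = 0.0106). This call depended on prep 1 and on the scaling of the arrays. Preps 3 and 4 alone, which are the values within one title group, gave a mean of -1.80 that passed (limma adjusted p = 0.00328). Lower calls over all features also rose there, from 1638 to 3464. The gene did not pass without prep 3 (mean -1.16, limma adjusted p = 0.273) or without prep 4 (mean -0.98, limma adjusted p = 0.211). With the arrays scaled to one median absolute deviation the mean was -1.13 and passed (limma adjusted p = 0.0403), and with quantile normalization it was -1.26 and passed (limma adjusted p = 0.0279).

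Its neighbour inx-9 (ZK792.3), whose product can stand in for that of inx-8 in the somatic gonad, had log2 ratios of 0.03, -0.44 and -1.19 with preps 1, 3 and 4. These values straddle 0, so the arrays do not place inx-9 on one side of the median probe. The mean was -0.53 ± 0.62 (SD, n = 3), with a 95% interval of -1.21 to 0.14 (limma adjusted p = 0.214). Without prep 4 the mean was -0.20, and with preps 3 and 4 alone it was -0.82 (limma adjusted p = 0.0532). Of the 3 genes, inx-14 and inx-8 lay below 0 on all arrays, as did 28.7% of all named genes.

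**Figure D1:**
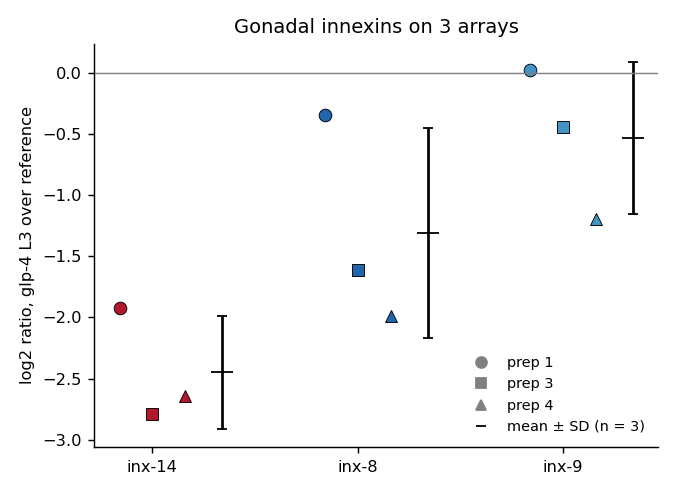
Log2 ratio of glp-4 L3 over the wild-type mixed reference (vertical axis) for inx-14, inx-8 and inx-9, with 1 point for each prep and the mean ± SD of the 3 arrays at the right of each gene. The points of inx-14 lie between -2.79 and -1.92, while inx-8 and inx-9 have their highest point with prep 1, at -0.34 and 0.03.

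The place of each gene among all named genes on the same array is not changed by a uniform stretch of that array's ratios. Noise or signal near background can still move this place, which was not tested. For inx-14 this place was nearly the same on every array: 1.4% of named genes lay below it with prep 1, 1.08% with prep 3 and 1.69% with prep 4 (98.6%, 98.9% and 98.3% with the ratio turned). For inx-8 it was not: 21.8% of named genes were lower with prep 1, against 3.71% with prep 3 and 3.28% with prep 4. For inx-9 the shares were 53.7%, 22.4% and 8.74%. The gap of the somatic genes between prep 1 and preps 3 and 4 therefore showed in ranks as well as in log2 ratios, and the title group moves with it. Whether the title group has a part in it was not tested, since that of prep 1 holds 1 array and gives no spread.

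**Figure D2:**
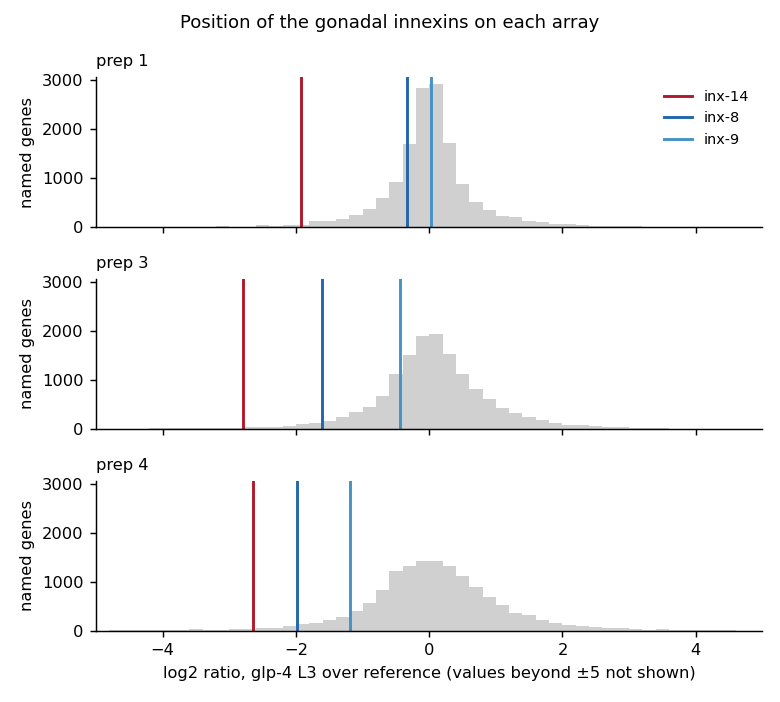
Histograms of the log2 ratio of glp-4 L3 over reference for all named genes, with 1 panel for each prep and the number of genes on the vertical axis; coloured lines mark inx-14, inx-8 and inx-9. The line of inx-14 stands in the lower tail of each panel, with 1.08% to 1.69% of genes below it, and the lines of inx-8 and inx-9 lie closest to 0 with prep 1.

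Set against each other on the same array, the 3 genes kept one order, inx-14 lowest, then inx-8, then inx-9. The log2 ratio of inx-14 minus that of inx-8 was -1.58, -1.18 and -0.65 with preps 1, 3 and 4, a mean of -1.14 ± 0.47 (SD, n = 3). The difference of inx-14 minus inx-9 was -1.95, -2.35 and -1.44, a mean of -1.92 ± 0.46. Between the somatic genes, inx-8 minus inx-9 was at -0.37, -1.17 and -0.79, a mean of -0.78 ± 0.40. Each of these differences was below 0 on 3 of 3 arrays and exceeded its SD. An exact two-sided sign-flip test over 3 arrays cannot give a p below 0.25, which is what each of the 3 gave, so the differences stand as descriptions. The germ cell gene against the mean of the somatic pair gave -1.77, -1.76 and -1.05.

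The adjacent genes inx-8 and inx-9 are close relatives, and their probes may share signal, which was not tested. They differed on every array by at least 0.37 log2 units. Genes next to the members were read without regard to their values. Beyond inx-9, the adjacent ZK792.4 was at 0.79 ± 0.48, and on the other side of inx-8 the nearest measured gene, ZK792.1, which is 3 genes away, was at 0.05 ± 0.41. Neither passed the test, and neither lay as low as inx-8. Without prep 1, ZK792.4 passed as higher (limma adjusted p = 0.0161) and ZK792.1 did not. Without prep 3 or prep 4, neither of them passed. The nearest measured genes on either side of inx-14 went opposite ways: spsp-1 (F07A5.2), directly next to it, was lower at -1.01 ± 0.53 (limma adjusted p = 0.0476), and gcsh-2 (F52A8.5), 2 genes away on the other side, was higher at 1.06 ± 0.30 (limma adjusted p = 0.0213). Both passed without prep 1, and neither did without prep 3 or prep 4. The genes inx-21 and inx-22 are adjacent to each other, and the nearest measured genes around them, lpd-3 at 0.04 ± 0.07 and cah-6 at -0.21 ± 0.43, did not pass the test.

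The rest of the innexin family gives the family's background. Of 20 other innexin genes listed, 18 were measured, 3 were higher and none was lower (limma); their median was 0.57, against 0.03 for all named genes. Over all features, 8.26% were higher and 8.37% lower. Before adjustment, 8 were higher and 1 lower at p under 0.05 (limma). The higher genes were inx-17 (R12E2.4) at 1.62 ± 1.00, inx-15 (R12E2.9) at 1.55 ± 0.32 and inx-5 (R09F10.4) at 0.86 ± 0.26. The higher count was 9 without prep 1, 0 without prep 3 and 1 without prep 4, and over all features it was 3211, 174 and 631 in the same order. Markers of the intestine were higher for 4 of 4 (0.78 to 2.73) and those of body wall muscle for 3 of 3 (0.79 to 1.58), and their part in the innexin counts was not tested. The 15 others ranged between -1.27 and 1.34.

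In the order of the 21 measured innexins by mean, inx-14 took place 1, inx-8 place 2 and inx-9 place 4, counted from the lowest (21, 20 and 18 with the ratio turned). Between the somatic pair lay inx-3 (F22F4.2), an innexin of the pharynx and embryo, named here after its value was seen. It had log2 ratios of -2.16, -0.90 and -0.74 with preps 1, 3 and 4, a mean of -1.27 ± 0.78 that did not pass (limma adjusted p = 0.0526), though it did without prep 1 (adjusted p = 0.0243) and with values as deposited. The prep 1 value of inx-3 was its lowest and lay below that of inx-14, whereas the prep 1 values of inx-8 and inx-9 were their highest. The neighbours inx-8 and inx-3 in this order did not differ beyond their spread, with a difference of -0.05 ± 1.64 (n = 3), nor did inx-3 and inx-9, at -0.73 ± 1.35, nor inx-14 and inx-3, at -1.18 ± 1.24, where inx-14 was the lower on 2 of 3 arrays. With preps 3 and 4, inx-14 and inx-8 took places 1 and 2 from the bottom, while inx-9 took place 12 with prep 1, 4 with prep 3 and 3 with prep 4. No innexin outside the gonadal set had a mean below that of inx-8, and only inx-3 had one below that of inx-9.

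**Figure D3:**
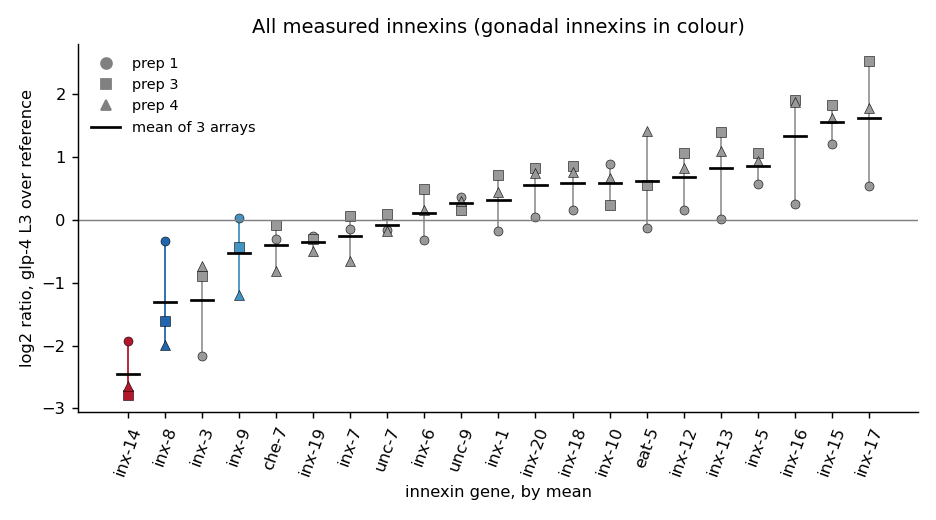
Log2 ratio of glp-4 L3 over reference (vertical axis) for the 21 measured innexin genes, ordered by the mean of the 3 arrays (black bar), with 1 point for each prep and a line over their range. The gonadal innexins, in colour, take places 1, 2 and 4 from the left, and inx-3, in place 3, has its lowest point with prep 1.

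Lists of genes that act beside these channels were described by their counts. They were chosen with earlier results of these data known. In the list of oocyte meiotic maturation, the process that INX-14 and INX-22 channels hold back, 14 of the 17 genes measured were lower, with no gene higher; the median was -2.04. The lowest were oma-2, for an RNA-binding protein of oocyte maturation, at -4.48, the eggshell gene cbd-1 at -3.84, the translational repressor gene puf-5 at -3.77 and the yolk receptor gene rme-2 at -3.60. The list thus also holds oocyte genes of the eggshell and of yolk uptake, so its count is not one of maturation genes alone. Of these 17 genes, 8 had a mean below that of inx-14 and 12 below that of inx-8. Without prep 3 the count of lower genes was 9, while over all features it fell from 1638 to 212. With all preps, 8.37% of all features were lower (limma).

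In the list of germline stem cell and Notch control, to which the INX-21 channels' role in proliferation is related, 8 of 14 were lower, none was higher and the median was -1.13. They included the nanos-related nos-2 at -3.36, the translational repressor gene gld-1 at -2.36, the Notch target gene sygl-1 at -1.61 and gld-3 at -1.48. Only nos-2 of these 14 genes lay below inx-14, whereas 6 lay below inx-8. Without prep 3 there was 1 lower gene, and without prep 4 there were 5. Lower features overall numbered 212 and 617 in these settings, against 1638 (8.37%) with all preps. In the germ cell identity list, 13 of 18 were lower, none was higher and the median was -1.48. The lowest were the Argonaute gene wago-1 at -3.15, the P granule genes pgl-1 at -2.61 and pgl-2 at -2.19, and the RNA helicase gene cgh-1 at -2.29. Here 2 of the 18 lay below inx-14 and 10 below inx-8; without prep 3 there were 2 lower genes. Before adjustment, too, no gene of these 3 lists was higher at p under 0.05 (limma).

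The list of gonadal sheath and Gs signalling genes, which act in the somatic gonad or in its signalling with oocytes, held 4 higher genes of 18 and no lower one; the median was 0.16 (limma; 6 were higher and 1 lower at p under 0.05 before adjustment). The higher ones were itr-1, the inositol trisphosphate receptor gene, at 1.53, the troponin genes mup-2 at 1.49 and tni-1 at 1.45, and kin-2, the regulatory subunit gene of protein kinase A, at 0.90. The troponin genes are also muscle genes, and RNA of whole animals does not show in which tissue any of the 4 was higher. The markers of body wall muscle and intestine given above were higher too, and their part in this count was not tested. The sheath markers lim-7 at -0.22 and ceh-18 at 0.30 are in this list and did not pass. Without prep 3 there were no higher genes, and without prep 4 there was 1. Higher features among all tested numbered 174 and 631 in these settings, against 1617 with all preps. With all preps, 8.26% of all features were higher and 8.37% lower (limma). No gene of this list had a mean below that of inx-8, and 2 had one below that of inx-9.

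**Figure D4:**
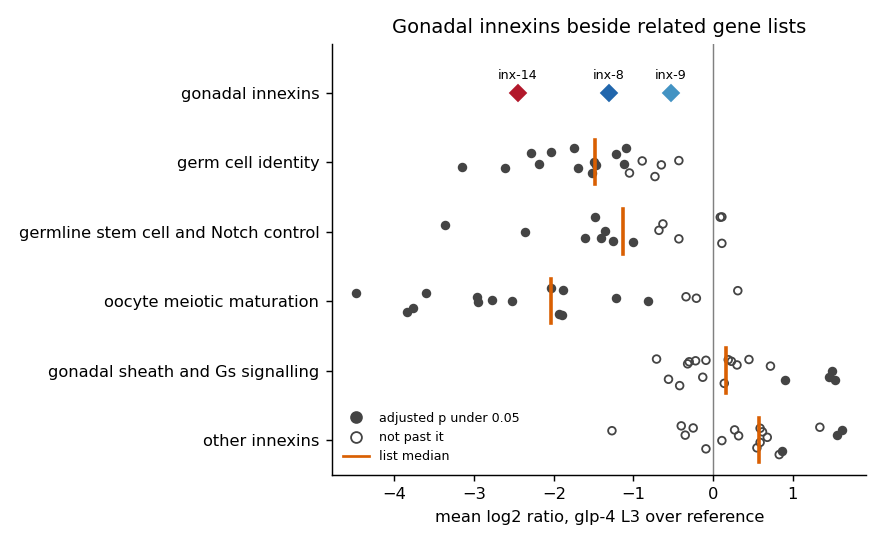
Mean log2 ratio of glp-4 L3 over reference (horizontal axis) for the 3 gonadal innexins (diamonds) and for each measured gene of 5 lists, with filled points for genes past the adjusted threshold, open points for the rest and a bar at the list median. The point of inx-14 at -2.45 lies within the range of each germ cell and oocyte list and below every gene of the sheath and other innexin lists.

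The named genes closest to each member over the 3 arrays were found by Euclidean distance between their log2 ratios. Values and calls like those of the member follow from this choice and are no separate result. Nearest to inx-14 were dpy-17, a cuticle collagen gene, at a distance of 0.21 log2 units, pes-2.2 at 0.25, and hrde-1, an Argonaute gene of heritable silencing in the germ line, and M01H9.3 at 0.28 each. All 4 were lower, with means between -2.49 and -2.32. Nearest to inx-8 were bath-24 (0.09), the neuropeptide genes nlp-35 (0.11) and pdf-2 (0.14), and F42A9.6 (0.16). Their values with prep 1 were between -0.45 and -0.30 and with prep 4 between -2.09 and -1.91. Nearest to inx-9 were rog-1, B0379.1, pei-1 and Y116A8A.6, at 0.07 to 0.14. Within a distance of 0.5 there were 15 genes for inx-14, 85 for inx-8 and 417 for inx-9, of 14685 others. These counts also depend on how far out each member lies. By mean, 1.2% of named genes lay below inx-14, 4.85% below inx-8 and 17.1% below inx-9.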

How the data were processed

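The values deposited by the authors cover 21632 probes on 3 two-colour arrays and were read from the numbers themselves as log2 ratios: below a ratio of 1, 100% on each array were the log2 of whole thousandths (within 0.01 thousandths). The sources used here state no background correction, normalization or build.

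Of the probes, 16450 had 1 gene in the platform annotation, 247 several and 4935 none. Symbols were updated through the RefSeq annotation of WBcel235 for 16360 probes by gene number and 8 by accession. Each array was centred on its median, probes of a gene were averaged, and 19580 features measured on all 3 arrays were tested against 0 with limma (version 3.58.1, R 4.3.3), at a Benjamini-Hochberg adjusted p under 0.05. The reference is 1 control RNA, so its own spread is left out. The number of arrays limits the precision. The procedure was tested on simulated data.

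Members and lists were chosen with earlier results of these data known. Named genes were the members, other innexins past the threshold, up to 4 genes per list and direction, the 4 genes nearest each member and the nearest measured neighbours; inx-3 was added after its value was seen.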

Additional observations from a re-analysis of the deposited data

How the results depend on the processing

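Results were recomputed with the deposited values left uncentred, with arrays scaled to one median absolute deviation, with quantile normalization, with features on 2 or more arrays, by single probe, with a robust variance prior, for a change above 1.5-fold, and without each prep. The title group as a random block was not run, because duplicateCorrelation returned no value for 3 arrays. No paired analysis was possible because there is a single group of samples.

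The gene inx-14 stayed past the threshold and inx-9 short of it under all 10 of these alternatives. For inx-8, scaling gave -1.13 and quantile normalization -1.26, both past the threshold (limma adjusted p = 0.0403 and 0.0279), and its mean ran between -1.80 and -0.98 with single preps left out; over all alternatives its adjusted p lay between 0.00328 and 0.332. The cause was not tested. The germ cell gene minus the somatic pair ran between -1.76 and -1.40 with single preps left out, around the value of -1.52.

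Requiring a change above 1.5-fold left 534 features lower and 491 higher, against 1638 and 1617, with 3 lower genes in the stem cell and Notch list, 8 in germ cell identity, and 1 higher gene each in other innexins and in sheath and Gs signalling. As deposited, 1 other innexin, inx-3, was lower. With single preps left out, lower features ran between 212 and 3464 and higher ones between 174 and 3211. Lower genes then ran between 0 and 1 for other innexins and for sheath and Gs signalling, 9 and 14 for oocyte maturation, 1 and 9 for stem cell and Notch control, and 2 and 15 for germ cell identity. Higher genes ran between 0 and 9 for other innexins and 0 and 5 for sheath and Gs signalling.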
